A study of Homo sapiens with 6 samples.

Results

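The genes described are the zinc finger genes whose current symbol is ZNF with a number below 300 and at most 1 letter. They were found through the array's gene annotation, with 1 row per gene and only rows that carry a single gene symbol. There were 126 such genes among the 15949 named genes on the array. The RNA came from PLC/PRF/5, an established cell line from a human liver carcinoma, and was read on Affymetrix Human Exon 1.0 ST arrays. The 3 knockdown arrays came from cells transfected with siRNAs against SLU7, which encodes a splicing factor of the second catalytic step. The 3 control arrays came from cells transfected with an unrelated control siRNA (siGL). The control samples are labelled siGL1 to siGL3 and the series text names siGL2 alone, so the labels do not settle whether the number is a replicate or an siRNA, and it was read as a replicate number. All cells were harvested 48 h after transfection with a lipid reagent, and both groups are the same unedited cell line. Each array gives 1 log2 expression value per transcript cluster, a set of probes that together cover a gene, for 18708 clusters in all. Whether the replicates were separate cultures is not given in the labels, and the p-values cover the spread between arrays, technical or not.

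Most ZNF genes encode transcription factors built from C2H2 zinc fingers, short repeats in which a pair of cysteines and a pair of histidines hold a zinc ion and which read DNA in tandem. Many of the proteins also carry a KRAB domain, which binds the scaffold protein TRIM28 and through it recruits the histone methyltransferase SETDB1 and heterochromatin proteins to silence the bound site, often a transposable element. The genes multiplied by tandem duplication, so that close paralogs lie side by side. In the RefSeq annotation of GRCh38.p14, 50 of the 126 genes lie on chromosome 19 and 11 on chromosome 16. By that annotation 124 are protein-coding and 2, ZNF137P and ZNF271P, are transcribed pseudogenes.

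The targeted gene SLU7 measured 5.84, 5.58 and 6.21 log2 units in the SLU7 siRNA arrays, against 7.89, 7.01 and 7.24 in the control arrays. The difference of -1.51 ± 0.31 (SE) log2 units left 35.2% of the control level. Its limma adjusted p over all clusters was 0.0783, and the two-sided exact permutation p was 0.1, the lowest value possible with 3 arrays against 3. Array medians over all clusters lay between 6.61 and 6.63 log2 units. On the first principal component, SLU7 siRNA replicate 1 and control replicate 2 stood apart from the other 4 arrays. The cell type label was checked on 15 liver and hepatoma genes, whose median level over the 6 arrays was 7.90 log2 units. Of these, 10 averaged above the median of all clusters (6.61), TF (transferrin) and APOA1 among them. The other 5, APOH, SERPINA1, AFP and TTR among them, ran from 3.47 (ALB, albumin) to 5.94 (TTR, transthyretin). The median level was 3.48 for 8 fibroblast and stellate cell genes and 5.14 for 8 blood and endothelial genes, with PTPRC, the pan-leukocyte marker, at 2.09. The members of these lists above 6.61 were PDGFRB at 8.30, LYZ at 9.62 and PECAM1 at 6.94. Between groups, 7 of the 15 liver genes lay wholly below the controls with SLU7 siRNA (median difference -0.46), as did 2 of the 8 blood and endothelial and 0 of the 8 fibroblast genes, against 9.21% of all clusters. The part of these shifts in the ZNF values was not tested.

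Most of the ZNF genes measured higher with SLU7 siRNA, and in none did the SLU7 siRNA arrays all lie below the controls. Of the 126 genes, 99 had a positive difference, with a median of 0.40 log2 units, where the median over all clusters was 0.00. In 42 genes all 3 SLU7 siRNA arrays lay above all 3 control arrays, which is 33.3% against 9.64% of all clusters. The opposite order was found in 0 genes, against 9.21% of all clusters. At an unadjusted limma p under 0.05, 33 genes were higher and 0 were lower, against 6.55% and 6.54% of all clusters. After Benjamini-Hochberg adjustment over all clusters, 1 gene rose (ZNF75A) and none fell, against 0.134% and 0.299% of all clusters, and the other 125 genes did not pass at 0.05. In bulk RNA a change in RNA per cell and a change in the share of cells that express a gene cannot be told apart.

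Rows were then separated by brightness, since differences between dim rows rest on little signal. A row was called bright when its mean over the 6 arrays reached 6.61 log2 units, the median of that mean over all clusters. The cut fell between ZNF205 (6.64, the dimmest bright gene) and ZNF177 (6.56, the brightest dim gene). The means of the ZNF genes ran from 1.67 (ZNF225) to 11.19 log2 units (ZNF180).

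Among the 56 bright genes the median difference was 0.46 log2 units, the quartiles were 0.19 and 1.01, and 47 were above 0. In 24 of them (42.9%) the SLU7 siRNA arrays all lay above the controls, against 12.3% of all bright clusters, and in 0 all below, against 12.0%. Among the 70 dim genes the median was 0.33 log2 units and 52 were above 0. In 18 of these (25.7%) the SLU7 siRNA arrays all lay above the controls, against 7.01% of all dim clusters, and in 0 all below, against 6.47%. Over all bright and all dim clusters the median differences were 0.00 and 0.01. At an unadjusted limma p under 0.05, 20 bright genes were higher and 0 lower, against 7.94% and 8.02% of all bright clusters, and 13 dim genes were higher and 0 lower, against 5.16% and 5.07% of all dim clusters. After adjustment 1 bright gene was higher and 0 lower, against 0.203% and 0.481% of bright clusters, and 0 dim genes passed in either direction, against 0.0641% higher and 0.118% lower. The shares were larger on the bright side, as they were over all clusters (12.3% of bright and 7.01% of dim clusters wholly above). The difference between the sides was not tested. The bright cut uses the mean over all 6 arrays, so higher SLU7 siRNA values helped a gene to pass it. ZNF212 passed with a control mean of 5.91, while ZNF177 stayed dim with an SLU7 siRNA mean of 7.38. The contrast between the sides therefore cannot be read apart from the cut.

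**Figure D1:**
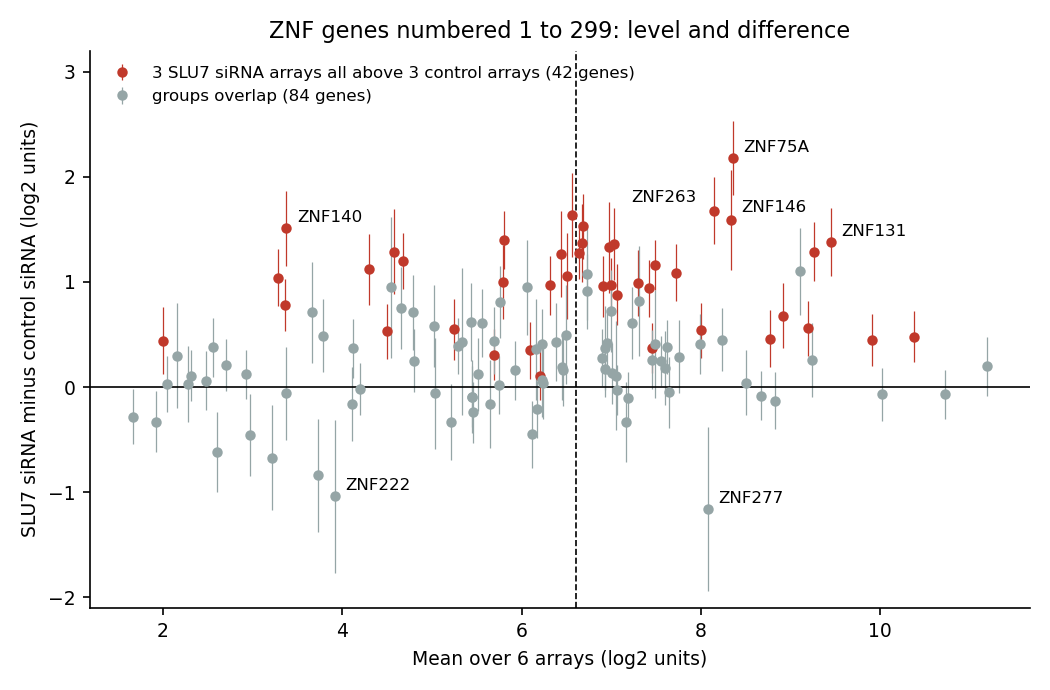
Difference between SLU7 siRNA and control siRNA (log2 units, bars are SE from limma) against the mean over 6 arrays (log2 units) for the 126 ZNF genes, with the bright cut of 6.61 as a dashed line. The 42 red genes have all 3 SLU7 siRNA arrays above all 3 control arrays, and 27 of the 84 grey genes, whose groups overlap, lie below 0.

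**Figure D2:**
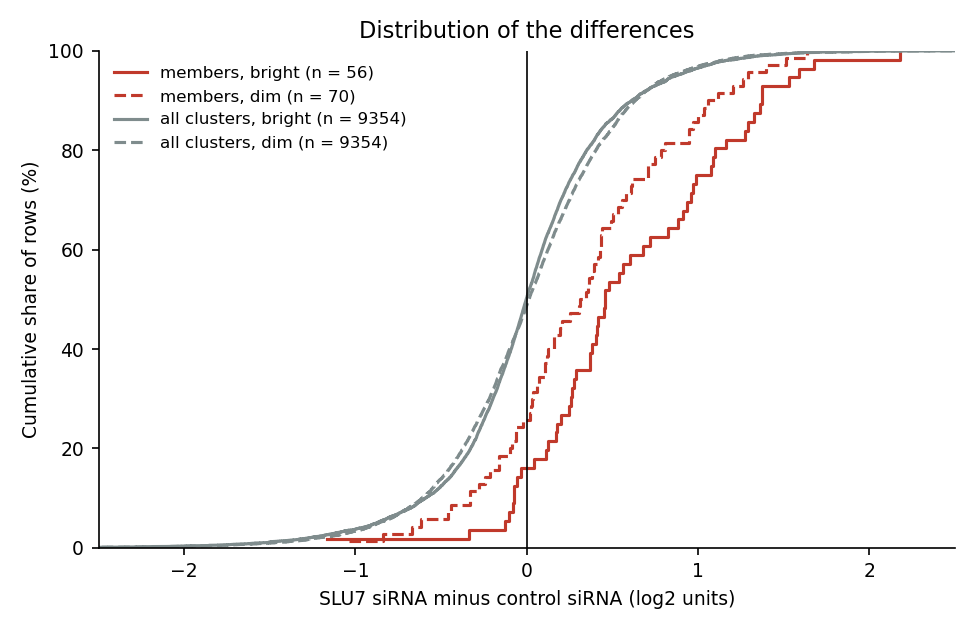
Cumulative share of rows (%) by their difference between SLU7 siRNA and control siRNA (log2 units) for bright and dim ZNF genes (members, red) and for all bright and dim clusters (grey). Both red curves lie to the right of the grey ones over most of the range, with medians of 0.46 (bright) and 0.33 (dim) for the ZNF genes, against 0.00 and 0.01 for all clusters.

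The same order was seen array by array. The median level over the bright ZNF genes was 7.74, 7.94 and 8.03 log2 units in the SLU7 siRNA arrays, against 7.30, 7.21 and 7.42 in the control arrays. Over the dim genes it was 4.94, 5.37 and 5.48 in the SLU7 siRNA arrays, against 4.79, 4.67 and 4.91 in the control arrays. Neither set of medians overlapped between groups. The SLU7 siRNA replicate 1 array had the lowest of its group in both sets and control replicate 2 the lowest of its own, and these are the 2 arrays that stood apart on the first component. The median ZNF gene was 0.23 log2 units lower in those 2 arrays than in the other 4 (a difference of -0.23). The median over all clusters went the other way and was 0.10 higher in those 2 arrays.

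Between these 2 arrays alone, SLU7 siRNA replicate 1 minus control replicate 2, the median difference was 0.49 for bright and 0.27 for dim genes, a contrast of single arrays with no error. Within the other 4 arrays it was 0.55 for bright and 0.34 for dim genes, so the family's difference was as large without the 2 arrays as with them. Within those 4 arrays, 71 genes had both SLU7 siRNA arrays above both controls, against 24.0% of all clusters, and 3 had the reverse order. The share of all clusters in the reverse order is not given here, so the 3 genes cannot be set against a background. Without SLU7 siRNA replicate 1 the bright median was 0.70, and 64 genes lay wholly above the controls, against 15.9% of all clusters.

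The largest difference was that of ZNF75A, a KRAB zinc finger gene of chromosome 16. It measured 9.21, 9.76 and 9.38 log2 units in the SLU7 siRNA arrays, against 7.11, 6.76 and 7.94 in the control arrays. Every SLU7 siRNA array was more than 1 unit above the brightest control. The rise of 2.18 ± 0.35 (SE) log2 units is 4.53-fold, with a limma adjusted p of 0.0485 that lies close to the threshold. The difference was 2.45 between the 2 arrays that stood apart and 2.04 within the other 4. ZNF75A lost its call without any 1 array (adjusted p from 0.0762 to 0.203, with differences from 1.92 to 2.51) and without the 2 arrays that stood apart (adjusted p = 0.117). ZNF75D, its paralog on the X chromosome, was dim, with means of 7.04 ± 0.21 in SLU7 siRNA arrays and 5.98 ± 0.85 log2 units in control arrays (SD, n = 3 each) and no overlap.

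After ZNF75A, 7 further bright genes had the largest differences among those whose groups did not overlap, and none of them passed the adjusted test. ZNF263, which carries SCAN and KRAB domains and binds many sites across the genome, measured 8.38, 9.23 and 9.36 log2 units with SLU7 siRNA, against 7.08, 7.56 and 7.31 with control siRNA. Its difference was 1.68 ± 0.32 (SE), or 3.19-fold, with an adjusted p of 0.0674. It was 0.82 between the 2 arrays that stood apart and 2.10 within the other 4, so its size depended on the arrays used. ZNF146, a protein made almost wholly of zinc fingers and overexpressed in several carcinomas, measured 8.72, 9.43 and 9.24 with SLU7 siRNA, against 8.13, 6.40 and 8.09 with control siRNA. Its difference was 1.59 ± 0.48 (adjusted p = 0.187), and 1.02 without control replicate 2, the low value. ZNF212 measured 7.21, 7.28 and 7.84 with SLU7 siRNA, against 5.69, 5.69 and 6.35 with control siRNA. Its difference of 1.53 ± 0.31 was steady, at 1.52 between the 2 arrays and 1.54 within the other 4.

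ZNF131, a transcription factor with a BTB domain beside its fingers, was among the brightest of these. Its values were 9.93, 10.35 and 10.15 log2 units with SLU7 siRNA, against 8.72, 8.27 and 9.30 with control siRNA, a difference of 1.38 ± 0.32 (adjusted p = 0.102). ZNF26, ZNF2 and ZNF227 completed the set, with differences of 1.37, 1.36 and 1.33 and adjusted p-values from limma of 0.153, 0.129 and 0.218. In ZNF227 and ZNF26 the controls were spread over more than 1 log2 unit, with control replicate 2 the lowest (5.37 and 5.21). Without that array the difference of ZNF227 was 0.86.

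The other 16 bright genes without overlap had smaller differences. ZNF30 averaged 9.90 ± 0.34 in SLU7 siRNA arrays and 8.61 ± 0.27 log2 units in control arrays (SD, n = 3 each). ZNF205 measured 7.22, 7.32 and 7.31 with SLU7 siRNA, against 6.22, 5.72 and 6.07 with control siRNA (1.28 ± 0.25, adjusted p = 0.0688). ZNF224, a KRAB repressor known for silencing the glycolytic gene ALDOA, measured 7.89, 8.26 and 8.05 with SLU7 siRNA, against 6.84, 6.86 and 7.02 with control siRNA (1.16 ± 0.24, adjusted p = 0.0765). ZNF189, ZNF266, ZNF17, ZNF136, ZNF71 and ZNF155 differed by 0.88 to 1.09 log2 units. ZNF208, ZNF267, ZNF174, ZNF43, ZNF207, ZNF91 and ZNF70 differed by 0.37 to 0.68 log2 units and had unadjusted limma p-values above 0.05. The remaining 32 bright genes overlapped between groups, 23 of them above 0 and 9 below.

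**Figure D3:**
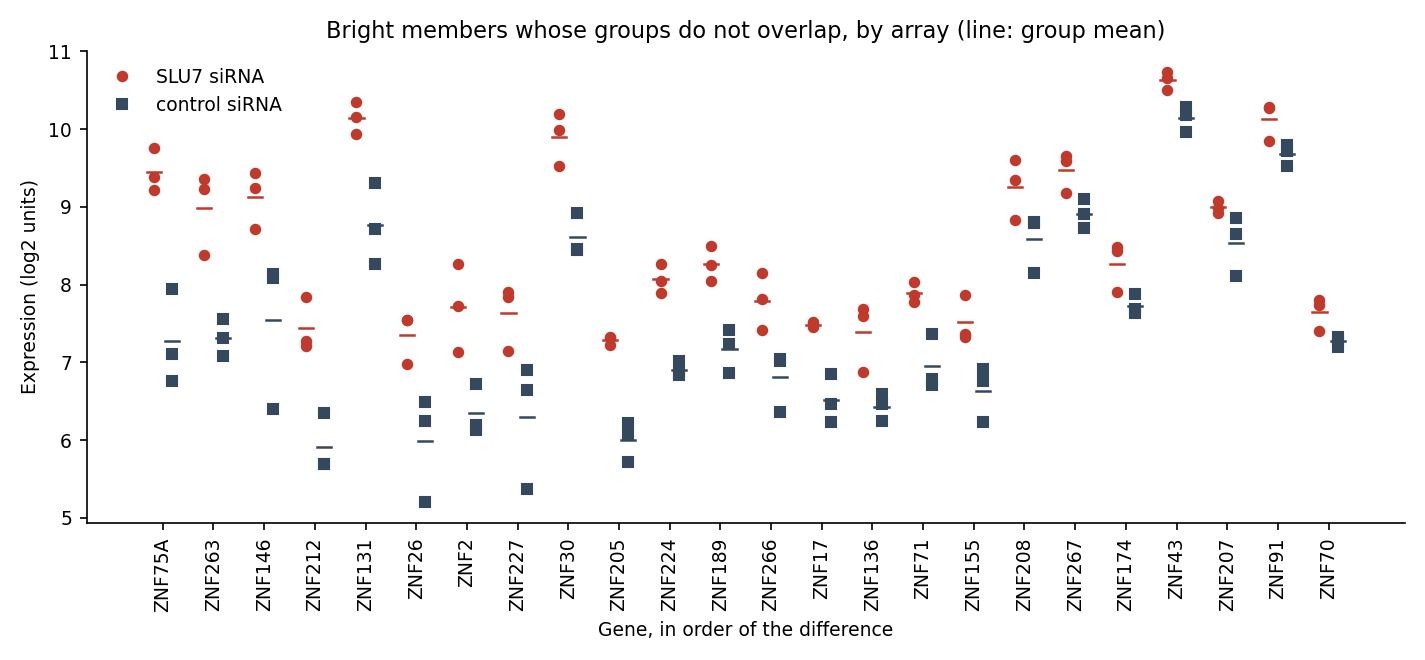
Expression (log2 units) of the 24 bright ZNF genes whose groups do not overlap, with 1 point per array and a line at each group mean, SLU7 siRNA to the left of control siRNA for each gene. ZNF75A shows the widest gap, with values of 9.21 to 9.76 in the SLU7 siRNA arrays, against 6.76 to 7.94 in the control arrays.

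Among the dim genes the largest differences without overlap were those of ZNF177, ZNF140, ZNF235 and ZNF223. ZNF177 measured 7.42, 7.20 and 7.52 log2 units with SLU7 siRNA, against 4.82, 6.04 and 6.36 with control siRNA. Its difference of 1.64 ± 0.40 had an adjusted p of 0.118, and the spread lay in the controls. ZNF235 measured 6.09, 6.77 and 6.67 with SLU7 siRNA, against 5.17, 5.29 and 4.87 with control siRNA (1.40 ± 0.28, adjusted p = 0.0734). ZNF140 averaged 4.13 ± 0.38 with SLU7 siRNA and 2.62 ± 0.60 with control siRNA (SD, n = 3 each), and ZNF223 averaged 5.23 ± 0.58 with SLU7 siRNA and 3.94 ± 0.58 with control siRNA. Both groups of ZNF140 and the control group of ZNF223 lay below 4.92, the lower quartile of all clusters, so the size of these differences is uncertain.

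The other 14 dim genes without overlap were ZNF84, ZNF233, ZNF226, ZNF75D, ZNF137P, ZNF37A, ZNF211, ZNF221, ZNF18, ZNF33A, ZNF93, ZNF214, ZNF41 and ZNF169, and they ran from 0.11 (ZNF169) to 1.27 log2 units (ZNF84). ZNF93, a KRAB repressor of LINE retrotransposons, was near the floor of the array, at 2.86, 1.96 and 1.83 with SLU7 siRNA, against 1.79, 1.74 and 1.80 with control siRNA. Only SLU7 siRNA replicate 1 stood off from the other 5 arrays. Of the 33 genes that lay below the lower quartile, 8 (24.2%) stood wholly above the controls, against 6.16% of all clusters below it, and their median difference was 0.25. Among the 93 at or above it, 34 (36.6%) did so, against 10.8% of all clusters there, and the median was 0.42. This cut also rests on the mean over all 6 arrays, so higher SLU7 siRNA values helped a gene to pass it.

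The genes with negative differences all had overlapping groups, and of those described here ZNF222, ZNF197 and ZNF253 were picked after their values were seen. ZNF277 had the largest, at -1.16 ± 0.78 (SE) log2 units with an adjusted p of 0.623. It measured 6.39, 7.73 and 8.39 with SLU7 siRNA, against 10.06, 6.92 and 9.01 with control siRNA, with a wide spread within each group. Its difference was -0.47 without control replicate 1 and -2.04 without control replicate 2. ZNF222 followed with -1.04 ± 0.73, which rested on SLU7 siRNA replicate 1 (1.66, against 3.40 and 5.14 in the other SLU7 siRNA arrays and 4.30 to 4.55 in the controls) and was -0.17 without it. ZNF197, ZNF157 and ZNF253 differed by -0.84, -0.67 and -0.62, at mean levels of 3.73 or lower.

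The 250 bases before the RefSeq start site are shown for the 3 bright genes with the largest differences and for ZNF277, the bright gene with the largest negative one, to show the promoter features searched for across the family. Sequences are from RefSeq on GRCh38.p14, 5′ to 3′, with matches to the ETS motif CCGGAAG and to the CCAAT box CCAAT on either strand in capitals.
ZNF75A (chr16:3305247-3305496, plus strand): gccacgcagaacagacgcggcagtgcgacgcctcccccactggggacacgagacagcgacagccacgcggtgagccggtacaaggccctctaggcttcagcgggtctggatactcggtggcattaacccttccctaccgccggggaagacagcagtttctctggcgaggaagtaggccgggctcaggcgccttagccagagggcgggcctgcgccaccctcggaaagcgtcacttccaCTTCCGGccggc
ZNF263 (chr16:3283241-3283490, plus strand): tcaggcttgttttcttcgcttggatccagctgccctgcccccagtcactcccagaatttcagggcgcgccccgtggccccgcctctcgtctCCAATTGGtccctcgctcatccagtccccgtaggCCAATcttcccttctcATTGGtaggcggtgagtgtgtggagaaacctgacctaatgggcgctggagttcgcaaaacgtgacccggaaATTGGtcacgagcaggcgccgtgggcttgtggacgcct
ZNF146 (chr19:36214856-36215105, plus strand): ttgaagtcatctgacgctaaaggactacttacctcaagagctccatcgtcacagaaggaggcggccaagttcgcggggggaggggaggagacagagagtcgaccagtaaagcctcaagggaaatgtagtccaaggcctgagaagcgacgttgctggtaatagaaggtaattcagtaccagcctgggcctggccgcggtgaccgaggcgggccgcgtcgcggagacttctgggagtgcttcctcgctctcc
ZNF277 (chr7:112206445-112206694, plus strand): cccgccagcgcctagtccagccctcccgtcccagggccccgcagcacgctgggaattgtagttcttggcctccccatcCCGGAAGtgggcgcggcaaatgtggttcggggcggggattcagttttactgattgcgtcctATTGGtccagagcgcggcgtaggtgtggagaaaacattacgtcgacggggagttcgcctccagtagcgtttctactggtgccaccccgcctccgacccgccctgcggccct

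In these windows ZNF75A held 1 ETS match close to its start and ZNF263 held 5 CCAAT matches on both strands, 2 of which overlap in a palindrome. ZNF146 had no match to either, and ZNF277, with the opposite sign of difference, held 1 of each. A promoter entry was found for 105 of the 126 genes, and 8 motifs were searched on both strands in the window of 300 bases that ends 50 bases after the start. The ETS motif CCGGAAG occurred in 42.9% of the 105 ZNF promoters, against 14.2% of 15842 promoters of protein-coding genes. The CCAAT box occurred in 54.3%, against 36.4%. The TATA box TATAAA was rarer, at 1.9% of ZNF promoters, against 9.63%.

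The features were also compared within the family, as a description. Among the 35 genes with a promoter entry and SLU7 siRNA arrays wholly above the controls, the ETS motif occurred in 31.4%, against 48.6% of the other 70 ZNF genes. The CCAAT box occurred in 54.3% of both. The GC box GGGCGG was found in 56.2% of ZNF promoters, against 58.5% of all, and the CRE core TGACGT in 9.52%, against 9.67%. The E-box CACGTG, also a palindrome, was found in 6.67%, against 8.88%. The ZNF143 motif ACTACAA was found in 8.57%, against 3.14%, and the palindromic NRF1 motif in 2.86%, against 1.75%. These are matches of letters, not measured binding. Median gene length was 23.6 kb for the ZNF genes and 26.7 kb for all named genes, and Spearman's rho between length and difference over the 126 genes was 0.02, a description across genes that share the same arrays.

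Position in the genome was examined next, since close paralogs lie side by side. Members of the family separated by at most 3 other protein-coding genes in RefSeq order were joined, and runs of at least 4 were kept, a rule set after the values were known. This gave 7 runs that hold 43 genes. The longest run, on chromosome 19, held 15 genes from ZNF45 to ZNF180, with a median difference of 0.88 log2 units. In 8 of them, against 9.64% of all clusters, namely ZNF221, ZNF155, ZNF223, ZNF224, ZNF226, ZNF227, ZNF233 and ZNF235, the SLU7 siRNA arrays lay wholly above the controls. ZNF230, ZNF222 and ZNF225 in the same run had negative differences of -0.16, -1.04 and -0.28, all at dim levels, and ZNF112 and ZNF180 differed by 0.12 and 0.20. Genes of this run are close paralogs, and their values are uncertain where a probe binds more than 1 of them, which was not tested.

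The run on chromosome 16 held 6 genes in the order ZNF205, ZNF213, ZNF200, ZNF263, ZNF75A and ZNF174, and included both of the largest bright differences. ZNF205, ZNF263, ZNF75A and ZNF174 lay wholly above the controls, against 9.64% of all clusters, and the median of the run was 0.91. ZNF213 (0.03 ± 0.36, at a mean of 2.28) and ZNF200 (0.17 ± 0.26, at 6.93), which lie between them, had overlapping groups. Adjacent genes of this run thus had unlike values. The run of 5 on chromosome 7 had a median of 0.71 with overlap in all 5 genes, and there ZNF273 and ZNF138 differed by 1.08 ± 0.44 and 0.95 ± 0.67. The 83 genes outside runs had a median of 0.35, and 26 of them lay wholly above the controls, against 9.64% of all clusters. All 50 genes of chromosome 19 had a median of 0.47, with 21 (42.0%) wholly above, and the 76 on other chromosomes had a median of 0.35, with 21 (27.6%) wholly above, against 9.64% of all clusters. No difference between these positions was tested.

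**Figure D4:**
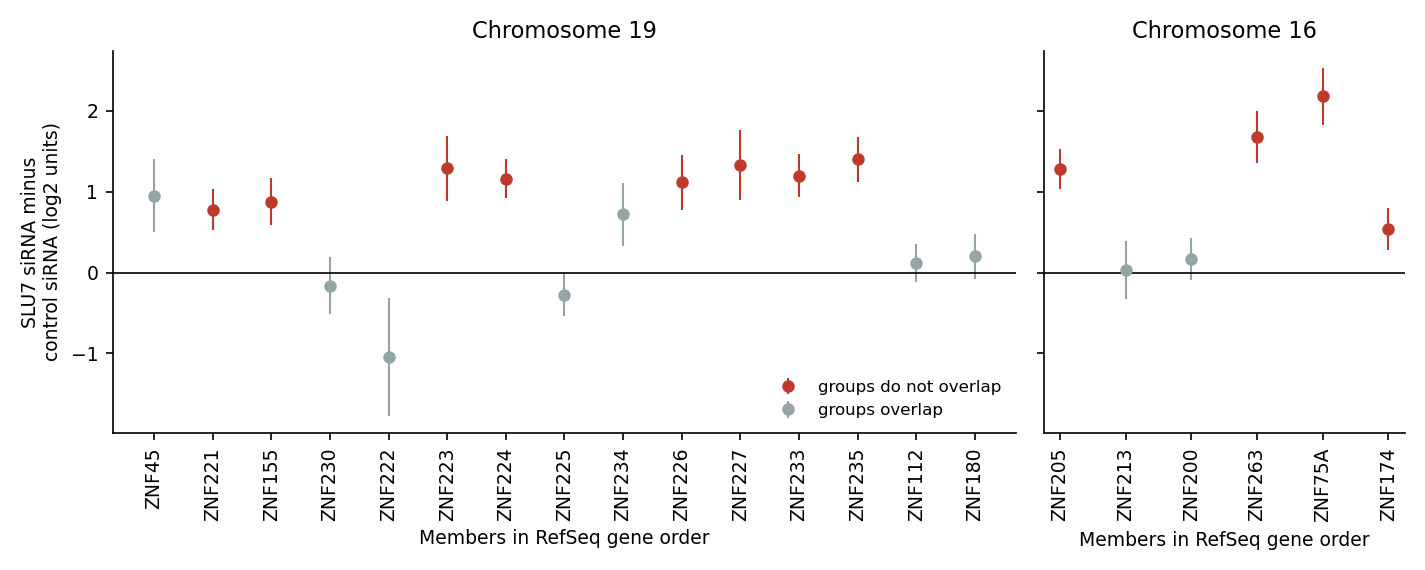
Difference between SLU7 siRNA and control siRNA (log2 units, bars are SE from limma) for neighbouring ZNF genes in RefSeq gene order, 15 on chromosome 19 and 6 on chromosome 16. Red genes, 8 and 4 of them, have groups that do not overlap, and the grey genes beside them run from -1.04 (ZNF222) to 0.95 (ZNF45).

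Genes were also grouped in lists of activators and looping factors, KRAB repressors with studied targets and tumour-linked genes. Differences between these lists were not tested. The list names are approximate and do not fix the role of each gene. ZNF263, on the first list, also carries a KRAB domain, and no role was measured here. Over all clusters 9.64% of rows lay wholly above the controls and the median difference was 0.00. Of 12 measured genes on the list of activators and looping factors (of 15 listed), 10 were above 0 with a median of 0.44. Of these, 4 (33.3% of the 12), ZNF131, ZNF263, ZNF174 and ZNF18, did not overlap. ZNF143, which activates small nuclear RNA genes and occupies many promoters, measured 7.18, 6.99 and 7.18 log2 units with SLU7 siRNA, against 7.50, 6.90 and 5.85 with control siRNA. The groups overlapped, the difference was 0.37 ± 0.40 (adjusted p = 0.81), and it was -0.08 without control replicate 3. Its paralog ZNF76 differed by 0.38 ± 0.26. ZNF281, a regulator of stem cell and mesenchymal genes, was bright and flat, at 10.66, 10.63 and 10.76 with SLU7 siRNA, against 10.77, 10.76 and 10.73 with control siRNA, while ZNF148, of the same subfamily, differed by 0.50 ± 0.47 with wide spread. ZNF35 differed by 1.10 ± 0.41 but overlapped.

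Of 14 measured KRAB repressors with a studied target (of 16 listed), 12 were above 0 with a median of 0.47, and 6 (42.9%), ZNF91, ZNF93, ZNF224, ZNF189, ZNF43 and ZNF208, did not overlap. ZNF91, which silences SVA retrotransposons, measured 9.85, 10.27 and 10.28 with SLU7 siRNA, against 9.79, 9.53 and 9.72 with control siRNA. The gap between the groups was small, and the difference of 0.45 ± 0.25 had an adjusted p of 0.525. ZNF274, which brings SETDB1 to the 3′ ends of zinc finger genes, differed by 0.61 ± 0.32 with overlap, and ZNF282 by 0.61 ± 0.34. ZNF202, a repressor of lipid metabolism genes, was level at 10.11, 10.06 and 9.80 with SLU7 siRNA, against 9.92, 10.30 and 9.97 with control siRNA. Its difference was -0.07 ± 0.25.

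The 11 measured corepressor or tumour-linked genes (of 12 listed) had a median of -0.06, with 5 above 0. Only ZNF146 and ZNF267 among them (18.2%) did not overlap. ZNF267, reported to be raised in liver carcinoma, averaged 9.47 ± 0.25 with SLU7 siRNA and 8.91 ± 0.18 with control siRNA (SD, n = 3 each). ZNF217, an oncogene amplified in breast cancer, measured 6.47, 7.53 and 7.01 with SLU7 siRNA, against 7.15, 6.91 and 7.95 with control siRNA, a difference of -0.33 ± 0.38. Of the 4 genes tied to mitosis or RNA binding, all were above 0 with a median of 0.41. ZNF207, a spindle protein that stabilises the checkpoint factor BUB3, was the one without overlap, at 8.92, 9.08 and 8.99 with SLU7 siRNA, against 8.65, 8.11 and 8.85 with control siRNA (0.46 ± 0.27). Of 6 measured X-linked genes (of 8 listed), 4 were above 0 with a median of 0.22, and ZNF41 and ZNF75D did not overlap. Over all clusters 9.64% of rows lay wholly above the controls. The lists of 4 and 6 genes are too short to be read against that share.

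The partners of KRAB proteins were read from a list of 34 cofactors and histone or DNA methylation genes, of which 31 were measured. Their median difference was 0.06 log2 units, 18 were above 0, and none passed the adjusted test with group as the only term. In 2 the SLU7 siRNA arrays lay wholly above the controls and in 2 wholly below, which is 6.45% in each direction against 9.64% and 9.21% of all clusters. TRIM28, the scaffold bound by KRAB domains, measured 9.37, 10.97 and 10.30 with SLU7 siRNA, against 10.50, 8.96 and 10.71 with control siRNA. It was low in both arrays that stood apart, its difference was 0.16 ± 0.54, and the sign turned without SLU7 siRNA replicate 2 (-0.22) or control replicate 2 (-0.39). SETDB1 differed by 0.47 ± 0.27 and the heterochromatin protein gene CBX3 by 0.22 ± 0.26, with overlap in both.

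The 4 cofactors without overlap lay on both sides of 0. RBBP4, a histone-binding subunit of several chromatin complexes, measured 10.61, 11.03 and 10.90 with SLU7 siRNA, against 9.66, 9.43 and 10.22 with control siRNA (1.08 ± 0.29, limma adjusted p = 0.151). The limma adjusted p of RBBP4 was 0.0492 with the 2 arrays that stood apart as a block and 0.341 with the replicate block. MORC2, an ATPase that works with the HUSH silencing complex, differed by 0.33 ± 0.24. UHRF1, which guides maintenance DNA methylation, measured 8.40, 8.44 and 8.39 with SLU7 siRNA, against 9.30, 9.43 and 9.08 with control siRNA (-0.86 ± 0.24, limma adjusted p = 0.154). MTA1, a subunit of the NuRD deacetylase complex, measured 10.48, 10.25 and 10.17 with SLU7 siRNA, against 11.23, 10.97 and 11.10 with control siRNA, a difference of -0.80 ± 0.24.

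Other zinc finger families on the array were set beside these genes. Among 260 ZNF genes numbered 300 and above the median difference was 0.24 log2 units, 189 were above 0, and 58 (22.3%) lay wholly above the controls with 4 (1.54%) wholly below, against 9.64% and 9.21% of all clusters. Among 54 ZBTB, ZSCAN and ZKSCAN genes the median was 0.25, with 37 above 0, 10 (18.5%) wholly above and 2 (3.7%) wholly below. Of their bright rows, 28.4% of the higher-numbered ZNF genes and 19.2% of the ZBTB, ZSCAN and ZKSCAN genes lay wholly above, against 42.9% of the ZNF genes numbered below 300. All 3 sets are read from the same 6 arrays, and the difference between them was not tested. The share over all bright clusters was 12.3%.

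**Figure D5:**
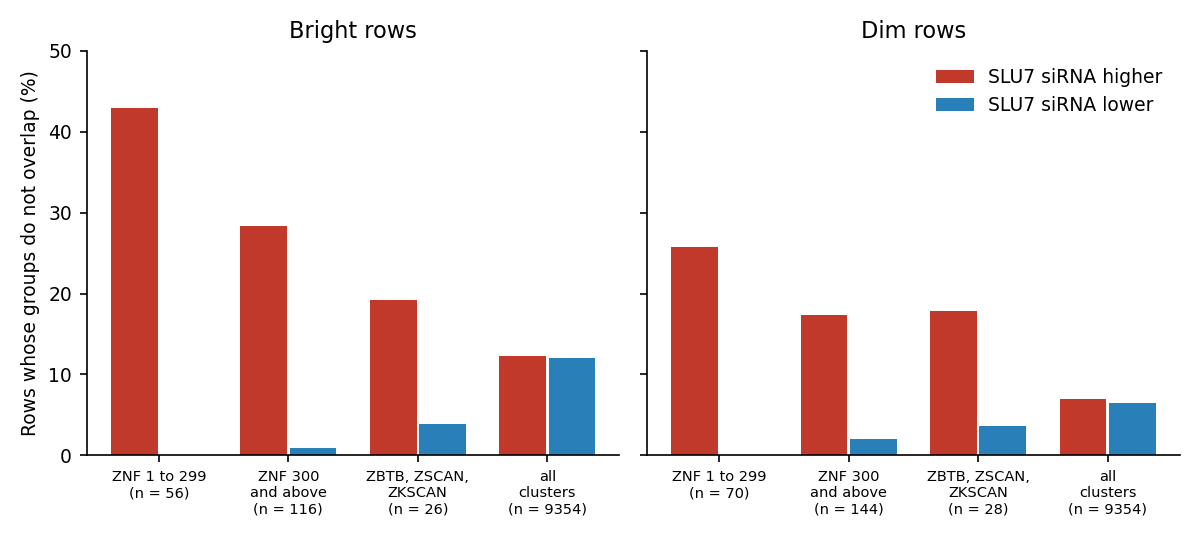
Share of rows (%) whose groups do not overlap, SLU7 siRNA higher (red) or lower (blue), for bright rows (left) and dim rows (right) of 3 zinc finger gene sets and of all clusters. The ZNF genes numbered below 300 reach 42.9% (bright) and 25.7% (dim) higher with 0 lower, and all clusters have 12.3% and 7.01% higher.

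Level and difference were only loosely related among the 126 genes. Pearson's r between the mean over 6 arrays and the difference was 0.23, and Spearman's rho was 0.22, both given as descriptions across genes of shared arrays. That mean includes the SLU7 siRNA arrays, so it is not independent of the difference. The relation to the control level alone was not examined. The 4 genes with means above 10 log2 units were not among those with the largest differences. ZNF180, ZNF281, ZNF43 and ZNF202, with means of 11.19, 10.72, 10.38 and 10.02 log2 units, differed by 0.20, -0.07, 0.48 and -0.07.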

How the data were processed

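The deposited values are log2 expression values, 1 per transcript cluster and array, which the authors made with RMA (background correction, normalization and probe summary) per the submitters' processing notes, on the core chip definition of aroma.affymetrix per the labels. The log2 scale was read from the range of the values. The build behind the clusters and the set of arrays that RMA saw were not given in the sources used here, so no coordinates of clusters are printed, and no detection calls were used. Summary over all core probes can turn a change of exon use into a change of level.

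Of 18708 clusters, 16287 had 1 symbol in GEO's platform annotation, and symbols were updated through RefSeq (2179 changed). Each of the 126 ZNF genes had 1 cluster, 4 were renamed from an older symbol, and 9 clusters that name such a gene among several symbols were left out. Groups were compared with limma 3.58.1 in R 4.3.3 (lmFit and eBayes without a trend, group as the only term) on all clusters with Benjamini-Hochberg adjustment and a threshold of 0.05. The fit was tested on simulated data with independent noise in each array. That test could not cover the deviations shared by the 2 arrays that stood apart. No 2 arrays shared more than 9 identical values, and correlations between arrays ran from 0.926 to 0.974. The number of arrays limits the precision (median SE of a difference 0.312). The named genes were SLU7, genes that passed, the 8 bright and 4 dim genes with the largest difference in each direction among those without overlap, role lists and cofactors without overlap. Others were named after their values were seen. The genes and lists were chosen with earlier results of these data known. Alternatives were a replicate block, a filter on dim clusters, quantile normalization, median centring, a trended robust prior, array weights, a threshold of 0.01, averaging clusters of a gene, another brightness cut, and leaving out each array or the 2 that stood apart or entering those as a block.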

Additional observations from a re-analysis of the deposited data

How the results depend on the processing

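With 3 arrays a group, single-gene calls depend on the setting, while the direction of the family did not turn in any setting run. Clusters called higher and lower numbered 221 and 354 with array weights, 357 and 426 with the 2 arrays that stood apart as a block, 173 and 268 with a trended robust prior, and 121 and 203 without clusters below the lower quartile, against 25 and 56. They were 0 and 0 at a threshold of 0.01, without both arrays that stood apart, with the replicate block, and without any 1 array (limma, 1833 to 2573 clusters at an unadjusted p under 0.05 in the last). ZNF genes called higher numbered 12, 17 and 8 of 126 under the first 3 of these, which tested 18708 clusters. Without clusters below the lower quartile they numbered 7 of 93, with 14031 clusters tested. They were 0 in the others, and ZNF genes called lower were 0 throughout. SLU7 passed under the 4 settings listed first, at -1.61 with array weights and -1.51 in the other 3. It ran from -1.69 to -1.25 without any 1 array.

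Same-numbered arrays did not deviate together (correlations of -0.381, -0.314 and 0.141 for replicates 1 to 3). The correlation was 0.517 between SLU7 siRNA replicate 1 and control replicate 2, the 2 arrays that stood apart. With 3 arrays a group, these values cannot settle whether same-numbered arrays were paired, which the labels do not give. Under the replicate block 0 ZNF genes were called and 1845 clusters had an unadjusted p under 0.05. Without any 1 array, ZNF genes wholly above the controls numbered 46 to 64 (13.2% to 17.2% of all clusters, against 9.64% with all arrays) and wholly below 0 to 4. Those at an unadjusted p under 0.05 numbered 24 to 41 higher (4.5% to 7.09% of all clusters) and 0 to 1 lower. The bright median ran from 0.42 to 0.70 and the dim median from 0.23 to 0.37. Without both arrays that stood apart, 71 were wholly above (24.0% of all clusters) and 3 wholly below, and 1 was lower at an unadjusted p under 0.05, as with the block. For the lower direction, shares of all clusters are not given for these settings, so those counts cannot be set against a background. Signs were reversed in 5 named genes, which were ZNF213 (-0.23 with array weights, -0.05 with quantile normalization, -0.35 without both arrays, and -0.29 to 0.30 without 1 array), ZNF230 (0.09 with array weights, 0.01 without both arrays, -0.53 to 0.08 without 1 array), and, without 1 array, ZNF202 (-0.15 to 0.04), ZNF143 (-0.08 to 0.74) and TRIM28 (-0.39 to 0.58). The cause was not tested.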
